A study of Mus musculus with 18 samples.

Results

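The respiratory chain subunits that are encoded in the nucleus were described in lung mRNA of mice. Members were all genes of the deposited table whose symbol names a subunit of complex I (Nduf with a letter of the a, ab, b, c, s or v series), complex II (Sdha to Sdhd), complex III (Uqcr), complex IV (Cox4 to Cox8) or complex V, the ATP synthase (Atp5). The rule found 82 of 13384 listed genes: 36 of complex I, 4 of complex II, 8 of complex III, 18 of complex IV and 16 with the Atp5 prefix. Ndufa4 and its homologue Ndufa4l2 were placed in complex IV, where the Ndufa4 protein resides, and Atp5s, which is not regarded as a subunit of the ATP synthase, was kept out of the sums for complex V. Cyc1, the cytochrome c1 subunit of complex III, falls outside the name rule and is described with the electron carriers.

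The study compared 3 groups of mice with 3 mRNA libraries each. The control group received phosphate-buffered saline (PBS). In the COPD model group, lung disease was induced with inhaled cigarette smoke plus an extract of it given intraperitoneally, and PBS was given as in controls. The BMSC-treated group had the same smoke and extract, followed by 4000000 BMSCs (mesenchymal stem cells in the labels) in 100 µl PBS by tail vein. The labels give no strain, age or sex and do not say whether each library is a separate mouse. The p-values below therefore cover library-to-library spread alone, which may be technical. All tissue was whole lung as labelled, in which fewer cells of a type and less RNA per cell cannot be told apart.

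The respiratory chain moves electrons from NADH (complex I) and succinate (complex II) through ubiquinone, complex III and cytochrome c to oxygen at complex IV, and complexes I, III and IV pump protons across the inner mitochondrial membrane. Complex V lets protons back and makes ATP. Complexes I, III, IV and V are assembled from nuclear subunits, imported after translation, and from subunits translated inside the organelle from the mt- genes; complex II has nuclear subunits alone. Several complex IV subunits exist as isoform pairs, one general and one restricted to heart and skeletal muscle or to other cell types.

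Abundances were FPKM values, that is, read density scaled to transcript length and library size, so levels of different genes can be set side by side. The 13 mt- genes held 23.9% to 92.2% of a library's summed FPKM, and Scgb1a1, the secretory protein of airway club cells, held 1.02% to 39.2%. Control library 1 and BMSC-treated library 1 stood apart, with mt- shares of 89.3% and 92.2% and with 1038 and 1193 genes listed at 0, against 107 to 201 in the other 7 libraries. Because those transcripts displace all others in FPKM, members are given both as deposited and as rescaled FPKM, in which every library has the same sum over the genes other than Scgb1a1 and mt- genes. All 9 lung markers checked, among them Sftpc and Cdh5, were listed.

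Relative to other nuclear genes the summed level of the subunits overlapped between the groups. As deposited, the 82 members summed to 1456, 3635 and 4202 FPKM in the control libraries, 5310, 4485 and 4417 FPKM in the COPD model libraries, and 1020, 3149 and 4821 FPKM in the BMSC-treated libraries. Control library 1 and BMSC-treated library 1 were the 2 lowest, and 2 COPD model libraries lay below the highest BMSC-treated library. Of the FPKM of genes other than Scgb1a1 and mt- genes, the members made up 2.33%, 2.58% and 2.36% in control, 2.73%, 2.35% and 2.12% in the COPD model, and 2.31%, 2.43% and 2.56% after BMSC treatment. These shares overlapped between all groups, with means of 2.42% ± 0.14 (SD, n = 3), 2.40% ± 0.31 and 2.44% ± 0.13 in that order. The highest and the lowest COPD model libraries were also the highest and the lowest of all 9.

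By complex, the share of other genes' FPKM differed between the highest and the lowest library by 1.37-fold for complex I, 1.50-fold for II, 1.23-fold for III, 1.37-fold for IV and 1.21-fold for V. Complex II was lowest in the same 2 libraries that stood apart, at 0.0573% in control library 1 and 0.0590% in BMSC-treated library 1, against 0.0750% to 0.0860% in the other 7. Complex IV made up 0.810%, 0.672% and 0.630% in the COPD model and 0.751%, 0.864% and 0.831% after BMSC treatment, which overlapped. COPD model library 1 was the highest of the 9 for complexes I, III and V.

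**Figure D1:**
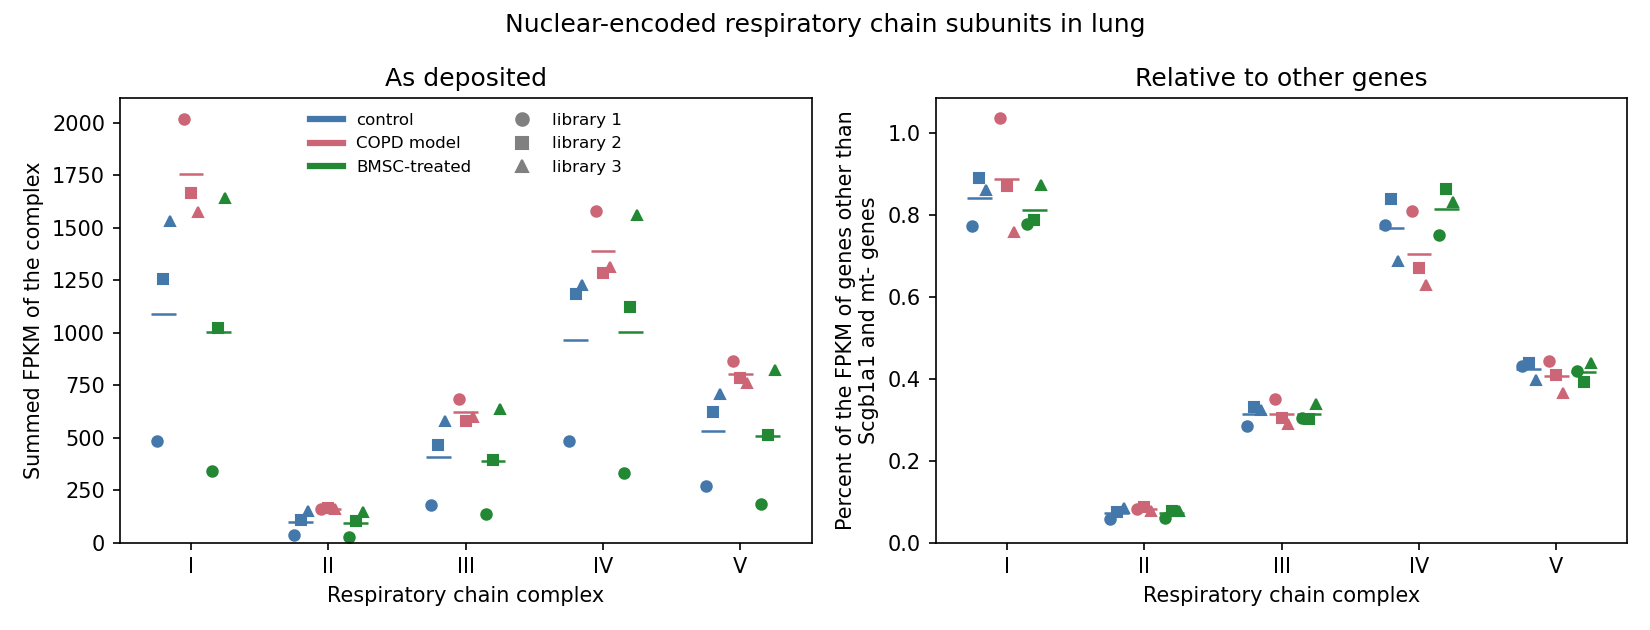
Summed FPKM of the nuclear subunits of complexes I to V in the 9 libraries, as deposited (left) and as a percentage of the FPKM of genes other than Scgb1a1 and mt- genes (right). Points are libraries, marked by number, and bars are group means; the deposited sums of control library 1 and BMSC-treated library 1 are the lowest of every complex, while the right-hand values of the groups overlap.

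The mt- partners of these subunits did not keep to the same ratio. For complex I, the mean FPKM of the 7 mt-Nd genes over the mean FPKM of the 36 nuclear genes was 2558, 651 and 342 in control, 189, 208 and 155 in the COPD model, and 3935, 870 and 356 after BMSC treatment. The COPD model libraries were the 3 lowest and overlapped neither other group. For complex IV, the ratio over its 3 mt-Co genes was 1971, 526 and 332 in control, 222, 217 and 143 in the COPD model, and 3035, 568 and 298 after BMSC treatment. Complex III, with mt-Cytb, spanned 183 to 4198, and complex V, with mt-Atp6 and mt-Atp8, spanned 225 to 5332. In both, too, the COPD model libraries were the 3 lowest. The same held for the mt- genes over all genes other than Scgb1a1 and mt- genes, so the pattern was not particular to these subunits. The mt- genes over those other genes spanned 25.8-fold between libraries, beside 25.3-fold for complex I. The members' own share of the other genes spanned 1.28-fold. Without control library 1 and BMSC-treated library 1, the highest ratio was still 5.60 times the lowest for complex I, 5.04 for III, 3.97 for IV and 4.89 for V. These ratios are a description and carry no test; in the fit over all genes described next, 4 of 13 mt- genes fell in the COPD model against control and 8 of 13 rose in BMSC-treated against COPD model lungs, as deposited, and 0 passed in either comparison after rescaling (5 lower and 11 higher at an unadjusted limma p under 0.05).

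**Figure D2:**
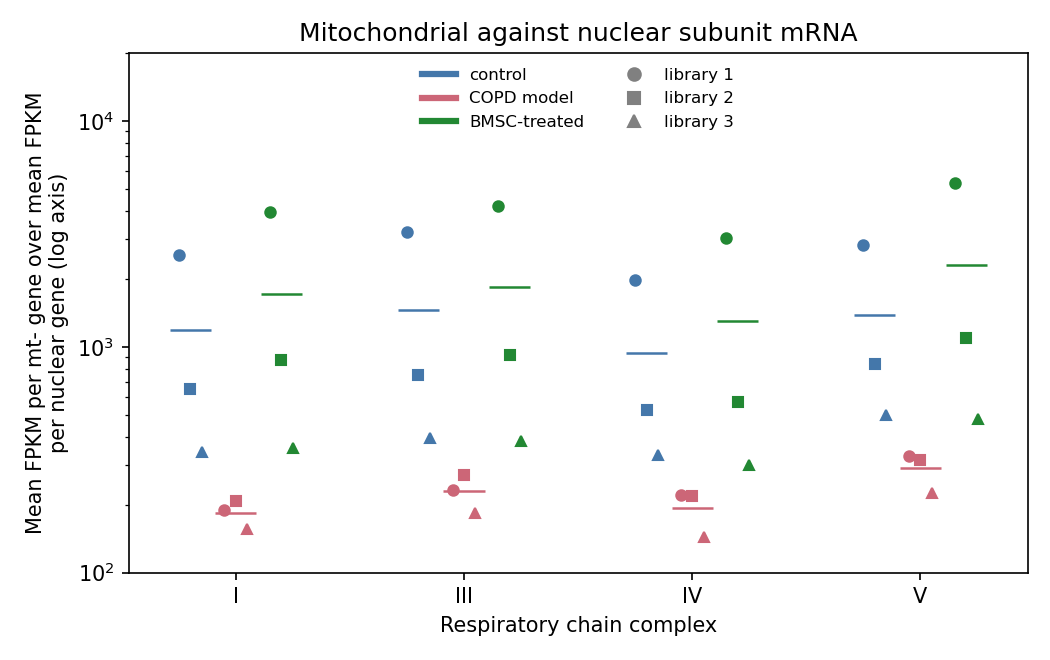
Mean FPKM per mt- gene over mean FPKM per nuclear gene for the 4 complexes that hold both, by library, on a log axis. Points are libraries and bars are group means; in each complex the 3 COPD model points lie below all control and BMSC-treated points, and the points of control library 1 and BMSC-treated library 1 lie above all others.

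Each gene was tested with limma on log2(FPKM + 1) over the 11765 genes with at least 1 FPKM in at least 3 libraries, with Benjamini-Hochberg adjustment over all of them. All 82 members passed that filter, and 0 of them passed an adjusted p under 0.05 in any comparison on either scale. Of all tested genes, 0.0765% passed in COPD model against control, 0.127% in BMSC-treated against COPD model and 0% in BMSC-treated against control, as deposited, and 0% in each comparison after rescaling. At an unadjusted limma p under 0.05, as deposited, 0 members differed in COPD model against control (6.36% of all genes higher, 0.229% lower), 1 (Ndufc2, lower) in BMSC-treated against COPD model (0.306% higher, 10.8% lower) and 0 in BMSC-treated against control (0.28% higher, 0.127% lower). After rescaling, COPD model against control had 2 lower (Cox8b and Atp5j), beside 2.76% of all genes higher and 1.72% lower. BMSC-treated against COPD model had 7 higher and 1 lower, beside 3.31% and 4.49%. BMSC-treated against control had 1 higher (Cox4i2), beside 1.57% and 0.858%. The smallest adjusted p of a member in any of the settings tried was 0.147, 0.0781 and 0.484 in the 3 comparisons, in the same order.

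Between COPD model and control, the median log2 change of the members was 0.73 as deposited and 0.01 after rescaling, beside 0.66 and 0.14 over all tested genes. As deposited, 31 members (37.8%) had COPD model libraries that all lay above all control libraries, and 0 lay below, beside 23.7% and 0.314% of all tested genes. After rescaling, 1 member lay above and 8 (9.76%) lay below: Ndufb2, Ndufa12, Cox8a, Cox8b, Cox6b2, Atp5c1, Atp5g2 and Atp5j. The background was 7.09% above and 3.9% below. Without control library 1 and BMSC-treated library 1, 1 member lay above and 13 (15.9%) below on the rescaled scale, beside 9.88% and 6.91% of all genes, and without control library 3 the deposited count was 56 (68.3%) above, beside 68.5% of all genes.

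Between BMSC-treated and COPD model lungs, the members' median log2 change was -0.88 as deposited and -0.005 after rescaling, beside -0.75 and -0.16 over all tested genes. As deposited, 0 members had all BMSC-treated libraries above all COPD model libraries and 18 (22.0%) had them all below, beside 0.272% and 31% of all tested genes. After rescaling, 14 members (17.1%) lay above and 6 (7.32%) below, where 6.25% and 14.2% of all tested genes did. The 14 were Ndufs6, Ndufa12 and Ndufb2 of complex I, Cox5b, Cox8a, Cox7a2l, Cox6b2, Cox7a1 and Cox8b of complex IV, and Atp5f1, Atp5j, Atp5c1, Atp5g1 and Atp5g2 of complex V. The 80 cytosolic ribosomal protein genes did so more widely, with 29 above and 1 below, and the 78 mitochondrial ribosomal protein genes had 2 above and 17 below. Without control library 1 and BMSC-treated library 1, 23 members (28.0%) lay above and 8 (9.76%) below after rescaling, beside 11.3% and 17.7% of all genes. The deposited count of 18 below became 68 (82.9%) without BMSC-treated library 3, beside 67.0% of all genes, and 29 (35.4%) without COPD model library 3, beside 35.2%. Both comparisons named so far use the same COPD model libraries.

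Between BMSC-treated and control lungs, the members' median log2 change was -0.17 as deposited and 0.001 after rescaling, beside -0.10 and -0.01 over all tested genes. As deposited, 0 members had groups that did not overlap, beside 0.178% of all tested genes higher and 0.382% lower. After rescaling 3 (Uqcrfs1, Cox5b and Atp5g2) lay above and 1 (Atp5h) below, beside 2.84% and 2.69%. Without control library 1 and BMSC-treated library 1, 16 lay above and 14 below, beside 18.1% and 17.5% of all genes, and the deposited counts were 3 above and 4 below, beside 10.4% and 8.61%.

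**Figure D3:**
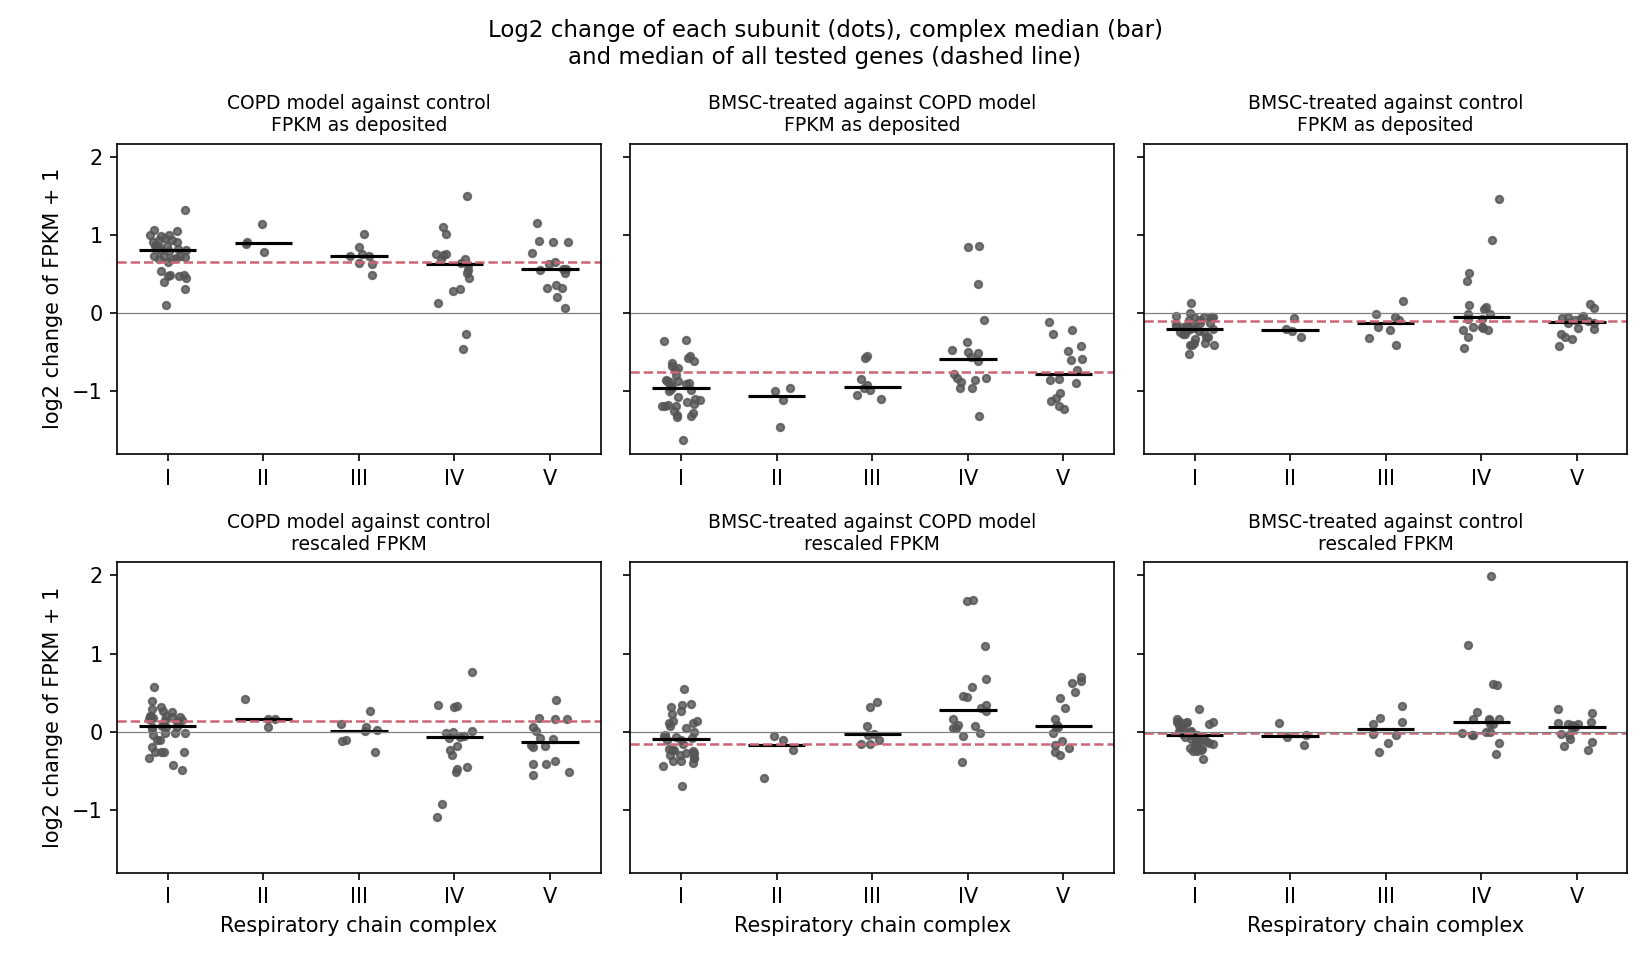
Log2 change of FPKM + 1 for each of the 82 genes (dots) by complex, with the median of the complex (bar) and the median of all 11765 tested genes (dashed line), as deposited (top) and after rescaling (bottom), for the 3 comparisons. The deposited values of COPD model against control lie mostly above 0 and those of BMSC-treated against COPD model mostly below 0, as the dashed lines do. After rescaling the dots lie on both sides of 0, and the dots farthest from 0 are complex IV isoforms.

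Complex I takes electrons from NADH in its peripheral arm, which holds core subunits such as Ndufs1, Ndufs3 and Ndufv1, and passes protons through a membrane arm clad with accessory subunits such as the Ndufb series. Its 2 most abundant members by median FPKM were the accessory subunits Ndufa1 (116 FPKM) and Ndufa6 (96.0 FPKM), and Ndufb2 was the lowest of all 82 (3.49 FPKM). The 36 log2 changes in COPD model against control ran from 0.11 (Ndufb2) to 1.32 (Ndufc2) as deposited, and these genes were at -0.48 and 0.57 after rescaling. Those in BMSC-treated against COPD model ran from -1.62 (Ndufc2) to -0.34 (Ndufb2), with rescaled values of -0.70 and 0.32. Those in BMSC-treated against control ran from -0.52 (Ndufa5, an accessory subunit of the peripheral arm) to 0.13 (Ndufa11, of the membrane arm), with rescaled values of -0.34 and 0.29. The 7 core subunits had log2 changes of 0.69 to 0.94 in COPD model against control as deposited, and of -0.04 to 0.20 after rescaling.

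Ndufc2, an accessory subunit of the membrane arm, had rescaled FPKM of 37.0, 75.4 and 102.8 in control, 96.8, 114.4 and 87.1 in the COPD model, and 50.6, 59.2 and 74.4 after BMSC treatment. The BMSC-treated libraries all lay below the COPD model libraries, and the control libraries overlapped both groups. Its log2 change in BMSC-treated against COPD model was -1.62 ± 0.80 (SE) as deposited and -0.70 ± 0.35 after rescaling, with limma adjusted p of 0.375 and 0.622. Ndufa8, Ndufv2 and Ndufs1 were also below the COPD model in every BMSC-treated library on both scales. In BMSC-treated against COPD model the deposited and rescaled log2 changes were -1.32 and -0.40 for Ndufa8, -1.18 and -0.27 for Ndufv2, and -0.93 and -0.24 for Ndufs1.

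Complex II, succinate dehydrogenase, joins the respiratory chain to the citric acid cycle. Sdha carries the flavin and had a median of 29.7 FPKM, Sdhb carries the iron-sulfur clusters and had 23.9 FPKM, and the membrane anchors Sdhc and Sdhd had 22.1 and 60.8 FPKM. Deposited log2 changes in COPD model against control ran from 0.79 (Sdhb) to 1.14 (Sdhc), with all 4 above the median of all genes. After rescaling the same 2 genes were at 0.07 and 0.42, and Sdhb lay below the median of all genes, 0.14. For BMSC-treated against COPD model the changes ran from -1.45 (Sdhc) to -0.96 (Sdhd) as deposited, with -0.59 and -0.05 after rescaling. Rescaled FPKM of Sdhc was 16.4, 17.7 and 21.1 in control, 27.8, 26.6 and 20.8 in the COPD model, and 12.9, 19.0 and 17.4 after BMSC treatment. Every BMSC-treated library lay below every COPD model library, and COPD model library 3 lay just under control library 3. The limma adjusted p of Sdhc in BMSC-treated against COPD model was 0.375 as deposited and 0.622 after rescaling. For BMSC-treated against control the extremes were Sdhc at -0.31 and Sdhd at -0.05 as deposited, and -0.16 and 0.12 after rescaling.

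Complex III passes electrons from ubiquinol to cytochrome c. The small subunits Uqcrb and Uqcr10 were its most abundant members, at medians of 148 and 122 FPKM. Uqcrb had rescaled FPKM of 104, 131 and 124 in control, 126, 115 and 118 in the COPD model, and 119, 112 and 119 after BMSC treatment, with overlap of all groups. Deposited changes of complex III in COPD model against control ran from 0.49 (Uqcr11) to 1.01 (Uqcr10), with -0.25 and 0.26 after rescaling. Changes between BMSC-treated and COPD model libraries ran from -1.09 (Uqcr10) to -0.54 (Uqcr11), with -0.16 and 0.38 after rescaling. Changes between BMSC-treated and control libraries ran from -0.41 (Uqcrc2, a core protein) to 0.16 (Uqcrq), with -0.26 and 0.33 after rescaling. Uqcrfs1, the Rieske iron-sulfur protein, had rescaled FPKM of 32.5, 39.7 and 40.1 in control against 42.0, 41.6 and 42.8 after BMSC treatment, which did not overlap, and 39.3, 43.0 and 38.1 in the COPD model.

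Complex IV, cytochrome c oxidase, had the highest and most of the least steady members. Cox6b1, which binds the outer face near cytochrome c, was the most abundant of all 82 at a median of 234 FPKM, followed by Cox8a at 169 FPKM. Cox6b1 had rescaled FPKM of 177, 209 and 195 in control, 203, 198 and 172 in the COPD model, and 181, 187 and 199 after BMSC treatment, so the groups overlapped. Cox8a had 229, 178 and 156 in control, 156, 124 and 129 in the COPD model, and 172, 188 and 199 after BMSC treatment, and the COPD model libraries were the 3 lowest. Its highest COPD model value, 155.8, lay just under its lowest control value, 156.2. As deposited, the log2 change of Cox8a was 0.31 in COPD model against control and -0.49 in BMSC-treated against COPD model, with overlap in both. After rescaling these changes were -0.45 and 0.45. Cox7a2l, which links complexes III and IV in supercomplexes, had rescaled FPKM of 181, 125 and 94.2 in control, 108, 91.0 and 81.3 in the COPD model, and 179, 127 and 117 after BMSC treatment. It was highest in control library 1 and BMSC-treated library 1, and overlapped between control and COPD model. The complex IV changes in COPD model against control ran from -0.45 (Cox8b) to 1.50 (Cox4i2) as deposited, with -1.08 and 0.77 after rescaling. In BMSC-treated against COPD model they ran from -1.32 (Cox6a1) to 0.87 (Cox8b), with -0.38 and 1.69 after rescaling, and in BMSC-treated against control from -0.44 (Ndufa4) to 1.47 (Cox7a1), with -0.28 and 1.99.

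The muscle isoforms Cox6a2, Cox7a1 and Cox8b replace Cox6a1, Cox7a2 and Cox8a in heart and skeletal muscle. After rescaling the muscle isoforms were highest in control library 2, and Cox7a1 and Cox8b were next highest in the 3 BMSC-treated libraries. Rescaled FPKM of Cox8b was 6.74, 28.2 and 5.75 in control, 4.04, 4.09 and 5.26 in the COPD model, and 18.2, 14.1 and 17.7 after BMSC treatment. The COPD model libraries lay below both other groups, which overlapped each other. The log2 change of Cox8b in BMSC-treated against COPD model was 0.87 ± 0.72 (SE) as deposited and 1.69 ± 0.48 after rescaling, with limma adjusted p of 0.405 and 0.622. As deposited its FPKM was 5.29, 5.26 and 7.37 in the COPD model and 5.40, 12.3 and 22.4 after BMSC treatment, which overlapped. Cox7a1 was listed at 0 in control library 1, and its rescaled FPKM was 28.0 and 4.35 in control libraries 2 and 3, 4.62, 10.5 and 3.61 in the COPD model, and 16.2, 24.0 and 21.6 after BMSC treatment. On that scale the BMSC-treated libraries all lay above the COPD model libraries, and control library 2 lay above them all. As deposited, the BMSC-treated and COPD model libraries of Cox7a1 overlapped, with a log2 change of 0.85 (limma adjusted p of 0.425). Cox6a2 had rescaled FPKM of 9.11, 59.3 and 2.92 in control, 2.70, 6.74 and 11.1 in the COPD model, and 4.69, 23.5 and 23.4 after BMSC treatment, with overlap of all groups.

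An isoform's share of its pair does not depend on how a library is scaled. Cox8b made up 2.87%, 13.7% and 3.55% of Cox8a plus Cox8b in control, 2.53%, 3.20% and 3.91% in the COPD model, and 9.60%, 6.99% and 8.18% after BMSC treatment. Cox7a1 made up 0%, 30.0% and 8.16% of Cox7a1 plus Cox7a2 in control, 8.43%, 21.1% and 6.11% in the COPD model, and 24.0%, 25.4% and 21.4% after BMSC treatment. Both shares were higher in every BMSC-treated library than in every COPD model library, by 5.04 and 11.7 percentage points of the means. The two-sided exact permutation p was 0.1 for each, the smallest that 3 against 3 libraries can give, and 0.386 after adjustment over the 27 isoform tests. Cox6a2 made up 6.95%, 33.2% and 2.20% of its pair in control, 1.34%, 4.12% and 8.17% in the COPD model, and 4.69%, 15.2% and 14.4% after BMSC treatment, which overlapped (exact permutation p of 0.2 between the last 2 groups). Cox6b2, an isoform known from testis, made up 4.94%, 2.63% and 2.48% in control, 2.14%, 1.95% and 2.39% in the COPD model, and 3.79%, 3.94% and 3.43% after BMSC treatment. The COPD model was the lowest group without overlap, at the same smallest exact permutation p of 0.1 (adjusted 0.386) against each other group.

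The muscle isoforms were set beside markers of heart muscle, which followed them in part. The pulmonary veins of mice carry sleeves of cardiac muscle, and all 12 cardiac markers checked were listed. Summed rescaled FPKM of those markers was 66.0, 642 and 123 in control, 208, 154 and 146 in the COPD model, and 134, 376 and 295 after BMSC treatment. The 3 muscle isoforms summed to 15.9, 115 and 13.0, then 11.4, 21.3 and 20.0, then 39.1, 61.6 and 62.7 in the same libraries. Control library 2 was the highest for both sums, and BMSC-treated libraries 2 and 3 were the next for both. BMSC-treated library 1 had a marker sum below every COPD model library but an isoform sum above them all, and COPD model library 1 was the fourth highest for the markers and the lowest for the isoforms. Without Actc1, which is also expressed outside the heart, the marker sum was 42.6, 563 and 33.7 in control, 43.2, 90.1 and 59.5 in the COPD model, and 107, 242 and 222 after BMSC treatment. That sum, like the isoform sum, was higher in every BMSC-treated than in every COPD model library; the choice to leave out Actc1 was made after its values were seen. Myl7, the atrial myosin light chain, was at 13.8, 340 and 9.94 in control, 13.4, 33.5 and 28.4 in the COPD model, and 47.0, 130 and 129 after BMSC treatment. Nppa was listed at 0 in 4 of the 9 libraries and reached 4.54 at most. Of 8 skeletal muscle markers 3 were listed, summing to 3.63 to 79.4 in every 1000000 FPKM of other genes, and of 5 brown fat markers 3 were listed, without Ucp1. The part of cardiac tissue in the isoform differences was not tested.

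Cox4i2, the complex IV isoform known from lung and from smooth muscle and pericytes, had rescaled FPKM of 20.3, 21.3 and 32.7 in control, 59.7, 29.6 and 41.7 in the COPD model, and 25.2, 107 and 55.8 after BMSC treatment. Its share of Cox4i1 plus Cox4i2 was 20.9%, 17.3% and 29.4% in control, 35.5%, 26.3% and 41.1% in the COPD model, and 19.5%, 53.5% and 47.4% after BMSC treatment. The share overlapped between all groups, with exact permutation p of 0.2 in COPD model against control and 0.3 in BMSC-treated against control. The log2 change in COPD model against control was 1.50 ± 0.81 (SE) as deposited and 0.77 ± 0.48 after rescaling (limma adjusted p of 0.514 and 0.754). Ndufa4l2, a homologue of Ndufa4 known to be induced in hypoxia, had rescaled FPKM of 10.3, 6.91 and 9.16 in control, 16.5, 8.01 and 10.5 in the COPD model, and 5.51, 30.3 and 14.5 after BMSC treatment. Both genes were highest in BMSC-treated library 2. Of 9 pericyte and smooth muscle markers, 4 were highest in that library, 4 in COPD model library 1 and 1 in control library 1. The 9 pericyte and smooth muscle markers summed to 145, 43.6 and 291 in control, 533, 198 and 262 in the COPD model, and 101, 350 and 210 after BMSC treatment, so their sum was highest in COPD model library 1, and none was listed at 0. Their part in these values was not tested.

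**Figure D4:**
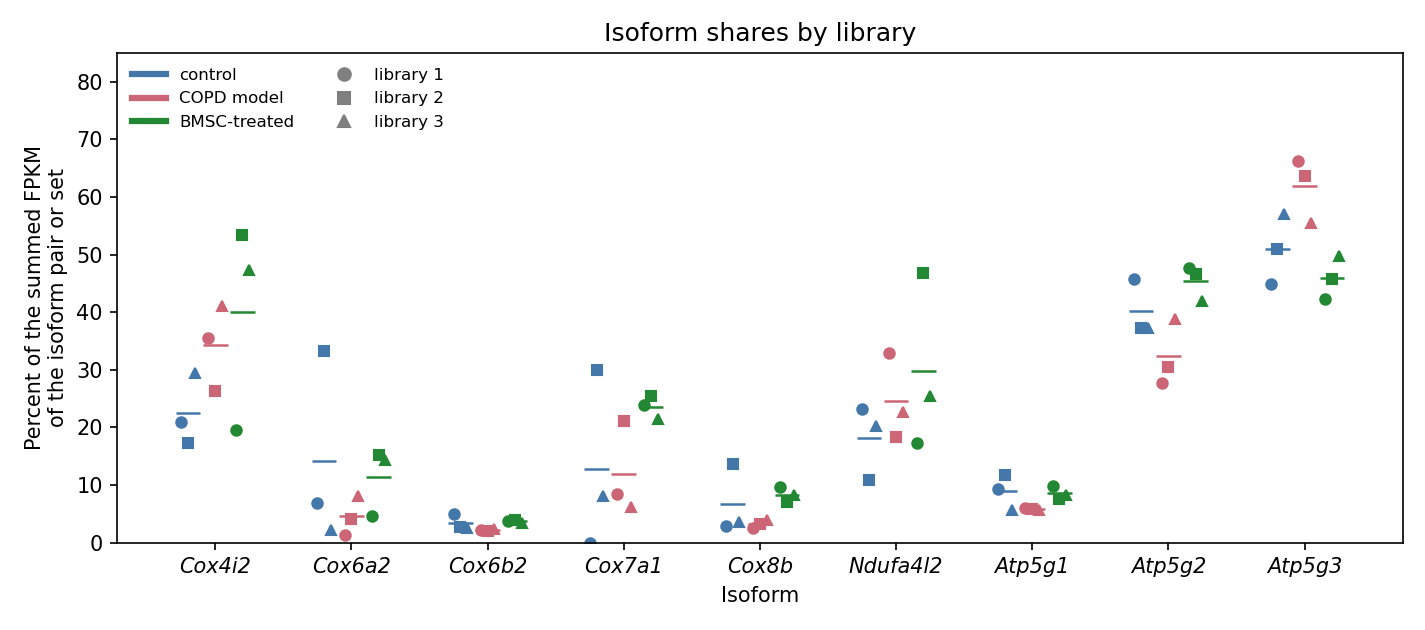
Percentage that each isoform makes of its pair, or each c-ring gene of the 3 c-ring genes, by library. Points are libraries and bars are group means; the COPD model and BMSC-treated points do not overlap for Cox6b2, Cox7a1, Cox8b, Atp5g1, Atp5g2 and Atp5g3, and control library 2 is the highest point for Cox6a2, Cox7a1 and Cox8b.

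The muscle isoforms Cox8b and Cox7a1 varied more over the libraries than the general Cox8a and Cox7a2. Their coefficients of variation of rescaled FPKM were 73.3% and 81.6%, against 19.6% and 21.4%. Within each pair the log2 changes in BMSC-treated against COPD model had the same sign after rescaling and opposite signs as deposited. The promoters of these 2 isoform pairs are shown because of that difference in spread. They are RefSeq windows of 300 bases on build GRCm38.p6, from 250 bases before to 50 after the annotated start: Cox8a at chr19:7217567-7217866 on the minus strand, Cox8b at chr7:140900397-140900696 on the minus strand, Cox7a2 at chr9:79759804-79760103 on the minus strand and Cox7a1 at chr7:30183921-30184220 on the plus strand. Capitals mark matches on either strand to the ETS letters CCGGAAG (bound by NRF-2, also called GABP), the NRF1 core GCATGCGC, the YY1 letters AAGATGG and the TATA box TATAAA.
Cox8a: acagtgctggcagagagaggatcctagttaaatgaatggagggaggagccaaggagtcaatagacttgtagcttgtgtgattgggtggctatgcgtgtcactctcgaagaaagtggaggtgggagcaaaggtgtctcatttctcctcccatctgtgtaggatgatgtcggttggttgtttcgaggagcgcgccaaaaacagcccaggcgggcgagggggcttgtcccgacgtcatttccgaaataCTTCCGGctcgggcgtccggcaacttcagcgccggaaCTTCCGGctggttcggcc
Cox8b: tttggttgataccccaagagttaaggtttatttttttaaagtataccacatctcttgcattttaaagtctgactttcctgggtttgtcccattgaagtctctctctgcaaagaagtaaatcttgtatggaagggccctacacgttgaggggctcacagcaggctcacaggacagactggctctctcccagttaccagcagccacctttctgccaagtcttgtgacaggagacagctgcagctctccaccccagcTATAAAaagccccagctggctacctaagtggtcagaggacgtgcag
Cox7a2: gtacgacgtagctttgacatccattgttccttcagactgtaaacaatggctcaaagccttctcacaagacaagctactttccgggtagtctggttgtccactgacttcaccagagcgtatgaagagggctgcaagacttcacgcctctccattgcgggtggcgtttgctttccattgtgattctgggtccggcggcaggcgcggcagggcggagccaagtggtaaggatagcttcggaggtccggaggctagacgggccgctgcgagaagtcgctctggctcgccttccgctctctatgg
Cox7a1: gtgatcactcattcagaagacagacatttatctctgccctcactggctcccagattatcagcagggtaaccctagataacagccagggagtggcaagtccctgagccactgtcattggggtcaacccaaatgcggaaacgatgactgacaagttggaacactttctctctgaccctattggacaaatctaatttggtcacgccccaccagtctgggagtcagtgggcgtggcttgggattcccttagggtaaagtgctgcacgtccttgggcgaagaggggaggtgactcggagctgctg
Cox8a held the ETS letters at 2 places, first bases at -5 and 33 from the start, Cox8b held TATAAA at 5 after the start, and Cox7a2 and Cox7a1 held none of the 4. Of 66 members with a window in the table, 16 (24.2%) held the ETS letters, against 9.93% of the 27025 genes in the table and 19.9% of the 9148 tested genes in it. The ETS letters end with the AAG with which the YY1 letters begin, so a single stretch can hold both. The NRF1 core was in 10 members (15.2%), against 3.05% and 5.82%. YY1 letters were in 15.2%, against 7.28% and 8.43%, and TATAAA was in 9.09%, against 15.7% and 8.97%. By complex, the ETS letters were in 4 of 32 windows of complex I, 2 of 3 of II, 2 of 5 of III, 3 of 13 of IV and 5 of 13 of V. The YY1 letters were in 7, 0, 0, 1 and 2 of the same windows, and the NRF1 core in 3, 1, 2, 1 and 3. A match describes these letters and is not evidence of binding, and 16 members had no window. The Cox7a2 gene is annotated at chr9:79755241-79771422, so its window marks a start inside the gene. No window at its outermost start was searched.

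Complex V makes ATP in its F1 head, which is held by a peripheral stalk and turned by a ring of c subunits in the membrane. Atp5h, subunit d of the stalk, was its most abundant member at a median of 134 FPKM, followed by Atp5a1, the alpha subunit of the head, at 81.0 FPKM. Deposited log2 changes of complex V genes in COPD model against control ran from 0.07 (Atp5g1) to 1.15 (Atp5e, the epsilon subunit of the head), with -0.56 and 0.41 after rescaling. In BMSC-treated against COPD model they ran from -1.22 (Atp5a1) to -0.11 (Atp5g1), with -0.30 and 0.65 after rescaling, and in BMSC-treated against control from -0.42 (Atp5h) to 0.12 (Atp5g2), with -0.24 and 0.29. Atp5j, coupling factor 6 of the stalk, had rescaled FPKM of 26.9, 28.2 and 21.9 in control, 18.3, 17.9 and 16.6 in the COPD model, and 33.4, 22.1 and 28.7 after BMSC treatment. Atp5c1, the gamma subunit that turns inside the head, had 52.1, 45.8 and 43.3 in control, 38.1, 31.5 and 35.5 in the COPD model, and 49.1, 50.4 and 50.5 after BMSC treatment. In both genes the COPD model libraries were the 3 lowest on that scale. As deposited, the groups overlapped, and the log2 changes in COPD model against control were 0.21 for Atp5j and 0.33 for Atp5c1. After rescaling these changes were -0.51 and -0.42. The catalytic Atp5b had rescaled FPKM of 40.9, 46.1 and 36.5, then 34.9, 39.2 and 42.4, then 38.1, 41.0 and 42.0 in the same order, with overlap of all groups.

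The 3 c-ring genes Atp5g1, Atp5g2 and Atp5g3 encode the same mature subunit c from separate loci, and they did not move together. Rescaled FPKM of Atp5g2 was 33.8, 30.2 and 30.5 in control, 21.8, 22.3 and 26.5 in the COPD model, and 37.1, 39.2 and 39.6 after BMSC treatment, with no overlap between any of the groups. Its log2 change in BMSC-treated against COPD model was 0.70 ± 0.18 (SE) after rescaling and -0.21 ± 0.78 as deposited, with limma adjusted p of 0.596 and 0.833. Atp5g3 had 33.2, 41.2 and 46.7 in control, 52.1, 46.7 and 37.9 in the COPD model, and 32.9, 38.4 and 46.9 after BMSC treatment, which overlapped, and its log2 change in that comparison was -1.12 as deposited and -0.21 after rescaling. Within the sum of the 3, Atp5g3 made up 45.0%, 50.9% and 57.1% in control, 66.3%, 63.7% and 55.6% in the COPD model, and 42.4%, 45.7% and 49.7% after BMSC treatment. Atp5g2 made up 45.8%, 37.3% and 37.3%, then 27.8%, 30.5% and 38.8%, then 47.7%, 46.7% and 42.0% in the same order. The share of Atp5g3 was thus 15.9 percentage points lower, and that of Atp5g2 13.1 points higher, in the mean of the BMSC-treated than of the COPD model libraries, without overlap. Atp5g1, the least abundant, made up 5.66% to 5.92% in the COPD model and 7.61% to 9.90% after BMSC treatment. Each of the 3 differences had a two-sided exact permutation p of 0.1, the smallest possible, and 0.386 after adjustment. The 3 shares add to 100% and are not independent of one another. The c-ring genes and other subunit genes have near-identical copies in the genome, so reads could have been split between them.

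Over the 9 libraries the subunits were steadier than most genes. Their coefficient of variation of rescaled FPKM had a median of 17.6%, beside 35.1% for all tested genes, 28.6% for 80 cytosolic and 22.8% for 78 mitochondrial ribosomal protein genes, and 124% for the 13 mt- genes. The members were also more abundant than most genes, with a median level of 33.0 rescaled FPKM, and spread depends on level. That level was 3.55 for all tested genes and 7.09 for mitochondrial ribosomal proteins. Cytosolic ribosomal protein genes and mt- genes had higher median levels than the members, at 169 and 18221, and larger spreads. The part of level in the spread was not tested. Medians by complex were 17.6% for I, 17.6% for II, 13.9% for III, 21.9% for IV and 16.1% for V. Ndufs8, a core iron-sulfur subunit of complex I, was the steadiest at 5.23%, followed by Atp5f1 (6.26%, subunit b of the stalk), Cox6b1 (6.65%) and Uqcrb (6.84%). Ndufs8 had 26.0, 28.2 and 26.8 rescaled FPKM in control, 28.9, 25.0 and 25.1 in the COPD model, and 26.3, 25.3 and 27.3 after BMSC treatment. The 5 least steady members were all isoforms of complex IV: Cox6a2 (113%), Cox7a1 (81.6%), Cox8b (73.3%), Cox4i2 (63.4%) and Ndufa4l2 (60.9%). Next came Ndufa5 at 41.5%, whose rescaled FPKM was 86.7 in COPD model library 1 and 28.4 to 51.7 in the other 8 libraries. COPD model library 1 was the highest library for 25 members, while COPD model library 3 was the lowest for 19, and control library 1 and BMSC-treated library 1 for 18 each.

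**Figure D5:**
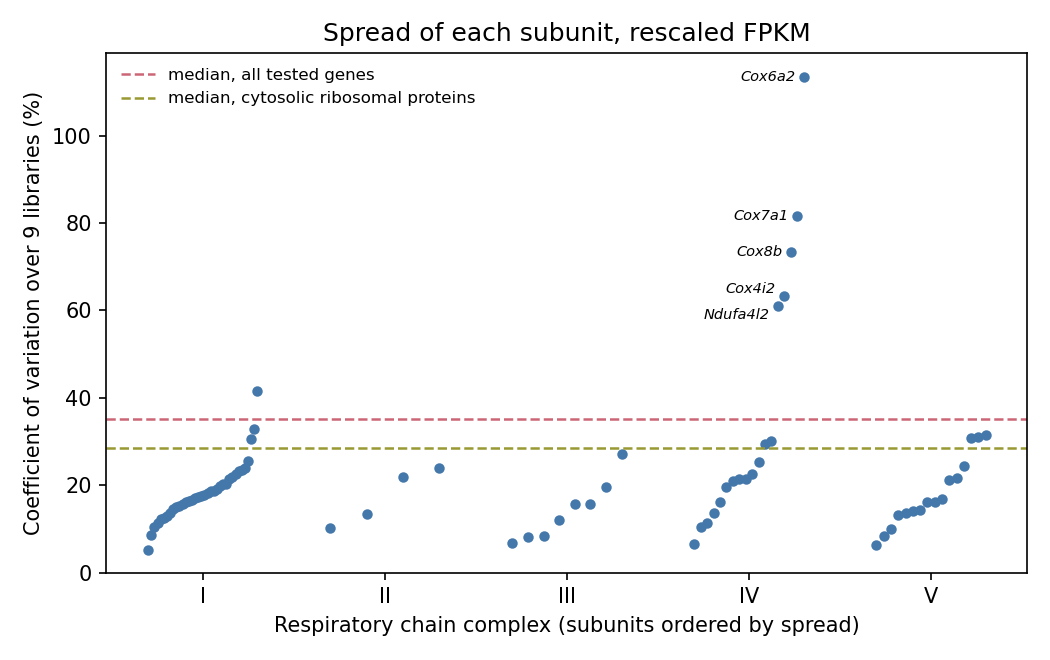
Coefficient of variation of rescaled FPKM over the 9 libraries for each of the 82 genes, by complex and ordered within it, with dashed lines at the medians of all tested genes and of cytosolic ribosomal protein genes. Most subunits lie under both lines, and the labelled complex IV isoforms lie between 60.9% and 113%.

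Other genes of the pathway had no calls either. Of 47 assembly factors, which build the complexes, 45 were tested, and 0 passed limma's adjusted p under 0.05 in any comparison on either scale. The same held for 14 genes of electron carriers and the ATP synthase inhibitor, 14 of the citric acid cycle and 14 tested regulators. At an unadjusted limma p under 0.05 in BMSC-treated against COPD model, as deposited, 4 assembly factors, 1 citric acid cycle gene and 2 regulators were lower. In that comparison 0 of the 4 lists' genes were higher, where 10.8% of all tested genes were lower and 0.306% higher. In COPD model against control 3 regulators were higher, beside 6.36% of all tested genes. After rescaling, the median log2 changes in COPD model against control were 0.09 for assembly factors, 0.19 for carriers, 0.08 for the citric acid cycle and 0.23 for regulators, beside 0.14 over all tested genes. In BMSC-treated against COPD model they were -0.13, -0.20, -0.06 and -0.23, beside -0.16. Of the regulators, 4 of 14 lay above control in every COPD model library after rescaling and 5 lay below the COPD model in every BMSC-treated library. Of all tested genes, 7.09% and 14.2% did so. Cyc1 had rescaled FPKM of 11.8, 21.0 and 18.4 in control, 17.1, 17.3 and 17.0 in the COPD model, and 7.89, 16.5 and 23.5 after BMSC treatment, and Cycs, cytochrome c, had 18.6, 24.9 and 21.9, then 20.0, 19.1 and 18.3, then 13.2, 19.5 and 19.4. Ppargc1a, a coactivator that drives mitochondrial gene expression, had 2.12, 1.71 and 2.55, then 2.10, 2.60 and 2.03, then 2.28, 1.69 and 1.37. In all 3 genes the groups overlapped.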

How the data were processed

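Gene abundance was measured as mRNA in 9 mouse lung libraries, 3 per group, with groups from the sample labels. Per the labels' protocols, 1.5 µg RNA was enriched with oligo dT and made into stranded libraries. Values are the authors' FPKM (per the file headers), which scale reads to transcript length and library size. The submitters' processing notes name FastQC, cutadapt, StringTie, Bowtie and mm10. Their roles and versions are not stated there, and read depth is unknown, so no counting interval is given. The deposited genes have a highest group mean of 0.5003 FPKM or more. The 9 tsRNA libraries were not used here.

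log2(FPKM + 1) of the 11765 genes with at least 1 FPKM in at least 3 libraries was fitted with limma 3.58.1 (R 4.3.3, mean-variance trend), all 9 libraries in one fit. Fold changes are on that scale, which understates changes of low genes. Isoform shares were compared by exact permutation tests (scipy 1.17.1). The fit was tested on simulated data whose spread was set smaller than that of these libraries, with genes varying independently. That check does not show how well the fit finds changes at the real spread. Rescaled FPKM have a sum of 148606 over genes other than Scgb1a1 and mt- genes in every library.

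The members and lists were chosen with earlier results of these data known. Named per complex were the 2 members of highest median FPKM, the highest and lowest log2 change as deposited in each comparison, up to 8 members whose groups did not overlap on both scales, the isoform pairs and the genes of complex II; other genes named were chosen after their values were seen, and 1 member that the rule names is not reported here. The motifs were chosen likewise. Same-numbered control and BMSC-treated libraries deviated together over genes (correlations of 0.63, 0.19 and 0.50), which pairs them by a rule of every correlation above 0.1. Among differently numbered libraries, control library 2 with BMSC-treated library 3 was at 0.31 and control library 3 with BMSC-treated library 2 at 0.19. The others ran from -0.58 to -0.27. Control library 2 was thus closer to BMSC-treated library 3 than to BMSC-treated library 2. Same-numbered COPD model libraries did not pair with control (-0.02, 0.18 and -0.17) or BMSC-treated libraries (0.05, -0.06 and -0.10).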

Additional observations from a re-analysis of the deposited data

How the results depend on the processing

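Each of 19 alternatives left 0 members called in each of the 3 comparisons. Only 3 libraries a group, the unknown read depth and libraries that differ in their mt- share limit what these data can resolve, and no result was shown to be free of that difference. The values below changed direction or moved by over 1.5 times (for medians, by more than the spread between libraries). The cause was not tested.

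Members whose COPD model and control groups did not overlap numbered 31 higher and 0 lower. They were 1 and 8 after rescaling, with or without the replicate block, 0 and 6 with median of ratios scaling, and 1 and 13 after rescaling without control library 1 and BMSC-treated library 1. The shares of all genes, in the same order, were 23.7% and 0.314%, 7.09% and 3.9%, 6.95% and 5.69%, and 9.88% and 6.91%. Leaving out 1 library gave 31 to 56 higher (56 without control library 3) and 0 to 1 lower (1 without control library 1, also with BMSC-treated library 1 out). Of all genes, 23.7% to 68.5% were then higher and 0.314% to 1.46% lower. For BMSC-treated against COPD model the numbers were 0 higher and 18 lower, 14 and 6 after rescaling, 14 and 1 with median of ratios, and 23 and 8 after rescaling without those 2 libraries. The shares of all genes were 0.272% and 31.0%, then 6.25% and 14.2%, then 9.52% and 11.4%, and 11.3% and 17.7%, in the same order. Without those 2 libraries as deposited, 4 members were higher, and leaving out 1 library gave 0 to 4 higher and 18 to 68 lower. Of all genes, 3.22% were higher without the 2, and leaving out 1 gave 0.272% to 3.22% higher and 31.0% to 67.0% lower. For BMSC-treated against control the numbers of members were 0 and 0, then 3 and 1 after rescaling, and 2 and 2 with median of ratios. Without the 2 libraries they were 3 and 4 as deposited and 16 and 14 after rescaling. The shares of all genes were 0.178% and 0.382%, 2.84% and 2.69%, 3.45% and 3.09%, 10.4% and 8.61%, and 18.1% and 17.5%, in that order. Leaving out 1 library gave 0 to 3 members higher and 0 to 4 lower, beside 0.178% to 10.1% and 0.382% to 8.47% of all genes. The members' median log2 change less that of all genes in BMSC-treated against COPD model was -0.13, and 0.15 after rescaling, with or without the replicate block, 0.18 with median of ratios and 0.15 with a pseudocount of 0.1. In COPD model against control this difference changed sign, though by less than the spread between libraries. It was 0.08 as deposited, -0.14 after rescaling, -0.17 with median of ratios and -0.15 with a pseudocount of 0.1.

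With the replicate number as a block and FPKM as deposited, 0 members were called in each comparison, and the block changed no member's call at an adjusted p under 0.05 on either scale. At an unadjusted limma p under 0.05, it gave 13 members (15.9%) lower in BMSC-treated against COPD model, against 1 without it, where the share of all genes lower went from 10.8% to 46.4%. It gave 1 member higher in each of the other comparisons, against 0. The shares of all genes higher were 33.4% in COPD model against control and 0.705% in BMSC-treated against control. After rescaling, the block gave 3 members (3.66%) lower in COPD model against control, against 2, beside 2.63% of all genes. In BMSC-treated against COPD model it then gave 8 (9.76%) higher and 2 (2.44%) lower, against 7 and 1, beside 4.48% and 9.48% of all genes.

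Log2 changes were followed over the alternatives for the extreme members of each complex and for members without overlap on both scales. The c-ring genes were added in BMSC-treated against COPD model. Other members also reversed between the 2 scales, among them Atp5j, Atp5c1 and Cox8a. In COPD model against control, the log2 changes followed reversed as below. Ndufb2 was at -0.48 after rescaling, -0.56 with median of ratios, and -0.015 without control library 1 and BMSC-treated library 1 (-0.26 when rescaled). Atp5g1 was at -0.56, -0.64, -0.28 and -0.55 in that order, and Uqcr11 at -0.25, -0.37, -0.035 and -0.35. Sdhb was at -0.052 with median of ratios. In BMSC-treated against COPD model and in the same order, Ndufb2 was at 0.32, 0.41, 0.032 and 0.28, Atp5g1 at 0.65, 0.75, 0.34 and 0.62, Uqcr11 at 0.38, 0.51, 0.21 and 0.54, and Atp5g2 at 0.70, 0.83, 0.40 and 0.73. Sdhd was at 0.086 with median of ratios and 0.19 rescaled without the 2 libraries. In BMSC-treated against control Sdhd was at 0.12, 0.13, 0.051 and 0.072. The share of Cox8b in that comparison was 1.02 percentage points lower, a difference of -1.02, without the 2 libraries.

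Leaving out 1 library at a time, the log2 change in COPD model against control spanned -0.015 to 0.19 for Ndufb2, -0.28 to 0.40 for Atp5g1, -0.035 to 0.77 for Uqcr11 and -1.10 to 0.33 for Cox8b. It spanned, in BMSC-treated against COPD model, -0.64 to 0.032 for Ndufb2, -0.52 to 0.34 for Atp5g1, -1.15 to 0.21 for Uqcr11 and -0.65 to 0.40 for Atp5g2. It spanned, in BMSC-treated against control, -0.76 to 0.76 for Sdhd, -0.45 to 0.77 for Ndufa11, -1.01 to 0.30 for Ndufa4, -0.93 to 0.36 for Uqcrc2, -0.83 to 0.14 for Atp5h, -0.34 to 0.73 for Uqcrq, -0.79 to 0.38 for Sdhc and -0.32 to 0.72 for Atp5g2. Differences of isoform shares that changed sign, in percentage points, spanned -0.868 to 16.1 (Cox4i2) and -3.26 to 11.5 (Ndufa4l2) in BMSC-treated against COPD model. They spanned -7.18 to 7.80 (Cox7a1) and -5.40 to 0.0057 (Cox8b) in COPD model against control. The BMSC-treated against control values spanned -8.68 to 6.83 (Cox6a2), -0.0631 to 1.17 (Cox6b2), -0.355 to 5.05 (Cox8b) and -1.92 to 1.13 (Atp5g1).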
